A study of Oryza sativa with 6 samples.

Results

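Wx (LOC4340018), the Waxy gene of rice, encodes granule-bound starch synthase I, which builds amylose, the mostly unbranched part of starch. BEI (LOC4342117, listed as Sbe1 and Rbe1 among its synonyms) encodes starch branching enzyme I, which cuts and rejoins glucan chains to make the branch points of amylopectin. Both act in the plastids of the starchy endosperm from ADP-glucose and the chains made of it, and their transcripts are abundant while the grain fills. The array carries several probe sets for each transcript. All 14 probe sets that the platform annotation gives to Wx alone (6) or to BEI alone (8), of 57194 probe sets in the series, are described here one by one.

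RNA of whole rice caryopses (young grains), taken 7 days after flowering, was hybridized to 6 single-colour arrays. The 3 wild-type arrays are from Zhonghua11, a japonica cultivar, and the other 3 from the mutant gif1, named for GIF1, a cell-wall invertase gene. The labels call the 3 arrays of each genotype biological replicates. Neither the lesion nor the parent line of gif1 is given, nor which plants went into an extract, so p-values measure the spread between these arrays. Whole caryopses hold endosperm, embryo and maternal pericarp, and fewer cells of a type cannot be told apart from less RNA per cell.

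Some features of the arrays bear on every value. GIF1 itself was lower in gif1 by limma (log2 difference -1.77, SE 0.28, adjusted p = 0.00254, n = 3 against 3). The median signal was 83.7 to 103.6 on the wild-type arrays and 67.5 to 72.6 on the gif1 arrays, though the authors' scaling gave all arrays the same trimmed mean. On the gif1 arrays the hybridization control RNAs read 1.42-fold lower, the poly-A control RNAs 4.72-fold lower and ribosomal RNA 2.09-fold lower, with no overlap between genotypes. Cell type markers were listed with earlier results of these data known, and many planned names had no match. Of them, 6 of 6 tested storage protein genes of the starchy endosperm fell (summed signal 427509 to 544324 in wild type, 286703 to 333953 in gif1). By the same measure 5.63% of all genes were lower and 7.92% higher. Among the 6, GLUA-1, GLUA-2 and RAG2 were read with probe sets that can also bind other transcripts. With median centring, quantile normalization or control scaling 1 of the 6 passed as lower, and their median difference went from -0.57 to -0.24, -0.07 and -0.06. Of 5 tested photosynthesis genes of the green pericarp 4 rose (74776 to 79974 and 93789 to 114891). The other, CAB2R, was lower on every gif1 array than on any wild-type array but did not pass (-0.25, limma adjusted p = 0.106). Of 9 aleurone and embryo genes 4 fell and 1 rose (62478 to 99539 and 35012 to 36266). No probe set of these lists read 0 on all arrays, and their part in the results on Wx and BEI was not tested.

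Of the Wx probe sets 5 passed the limit on mean signal (74.1) and were tested, and of the BEI probe sets likewise 5. Differences are in log2(signal + 17.7), gif1 minus wild type, with the limma adjusted p over all 28597 tested probe sets at 0.05. At that threshold 6.0% of all tested probe sets were lower in gif1 and 5.98% higher. Identifiers ending in _x_at mark probe sets with probes that can also bind other transcripts, those ending in _s_at sets whose probes are shared among several transcripts, and those ending in _a_at sets for several transcripts of a single gene. Probe sets of a gene share the same RNA on each array and are not replicates.

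For Wx, all 5 tested probe sets read lower on every gif1 array than on any wild-type array, but the difference passed the test for 1 of them. Over all tested probe sets, 18.3% had groups apart with gif1 lower. The brightest Wx probe set, Os.11244.3.S1_x_at, gave wild-type signals of 55444.5, 49191.2 and 61512.2 and gif1 signals of 37946.6, 40770.7 and 40234.3. The lowest wild-type array thus stood above the highest gif1 array. Its means were 55383 ± 6161 and 39651 ± 1500 (SD, n = 3), and it fell by 0.48 on the log2 scale (SE 0.10, 95% interval -0.70 to -0.25, limma adjusted p = 0.0141). The call was lost without gif1 replicate 1 (-0.45, adjusted p = 0.0663) or gif1 replicate 3 (-0.49, adjusted p = 0.0545). It was also lost with median centring (-0.14), quantile normalization (-0.12) and control scaling (0.03), at limma adjusted p from 0.402 to 0.874. With no limit on mean signal it did not pass either (limma adjusted p = 0.0920).

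The next Wx probe set, Os.11244.1.S1_at, gave wild-type signals of 45976.1, 44805.7 and 52495.9 and gif1 signals of 31716.3, 42775.6 and 39706. Here gif1 replicate 2 came close to the lowest wild-type array, and gif1 replicate 1 lay far below. The difference was -0.33 with an SE of 0.12 and a 95% interval of -0.60 to -0.07, and missed the threshold (limma adjusted p = 0.0999). A second probe set made from the same source sequence, Os.11244.1.S1_x_at, gave wild-type signals of 21103.9, 20895.3 and 21611.8 and gif1 signals of 15652, 20437.4 and 18397.9. Its wild-type arrays were close together (SD 369 on a mean of 21204), while the gif1 arrays spread over a wider range (SD 2401 on 18162). The difference was -0.23 (SE 0.11, limma adjusted p = 0.200). Os.11244.2.S1_x_at gave wild-type signals of 26394.5, 27111.4 and 28878.7 and gif1 signals of 21145.9, 25116.5 and 23999.3, a difference of the same size (-0.23, SE 0.10, limma adjusted p = 0.160). These 4 probe sets were among the brightest on the array, with 74 to 343 of 57194 probe sets brighter.

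The fifth tested Wx probe set was dim. Os.38414.1.S1_at gave wild-type signals of 288.4, 239.4 and 232.1 and gif1 signals of 139, 198.1 and 166.8. It had the largest difference of the Wx probe sets and also the widest error (-0.55, SE 0.26, 95% interval -1.13 to 0.02, limma adjusted p = 0.195). The sixth, Os.16718.1.S1_at, was under the limit and was not tested: it gave wild-type signals of 12.1, 82.9 and 8.4 and gif1 signals of 20.8, 51.1 and 9.8. On both genotypes replicate 2 was the high array, and the groups overlapped.

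Among the gif1 arrays replicate 1 was the lowest and replicate 2 the highest for all 5 tested Wx probe sets. Wild-type replicate 3 was the highest wild-type array for 4 of them, the exception being Os.38414.1.S1_at, where replicate 1 was. Of the 5 tested BEI sets, gif1 replicate 2 was the highest gif1 array for 3 and replicate 1 the lowest for 1. On gif1 replicates 1, 2 and 3 the median signal was 67.5, 72.6 and 72.4. The hybridization controls read 4320, 5135 and 4290. How common this order is over all probe sets was not tested. The median difference over the 5 Wx probe sets was -0.33, against a median of -0.06 over all tested probe sets.

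BEI gave calls in more of its probe sets and a wider range. Of 5 tested, 3 fell, none rose and 2 did not pass, with differences from -0.89 to 0.05 and a median of -0.38. The brightest, Os.22169.2.S2_x_at, gave wild-type signals of 64271, 54448.2 and 71479.6 and gif1 signals of 46728.5, 53678.6 and 47566.7. Wild-type replicate 2 and gif1 replicate 2 nearly met. The difference was -0.36 with an SE of 0.12 and a 95% interval of -0.61 to -0.10. It missed the threshold (limma adjusted p = 0.0672), though not without wild-type replicate 2 (-0.46, adjusted p = 0.0319).

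Os.22169.2.S2_a_at, made from the same source sequence, gave wild-type signals of 59827.5, 51247 and 64628.6 and gif1 signals of 44993.7, 46872.9 and 43019.4. Its groups were further apart, and it passed as lower with nearly the same difference (-0.38, SE 0.11, limma adjusted p = 0.0412). Os.22169.1.S1_a_at, from another source sequence, gave wild-type signals of 46553.4, 36074.9 and 43834.8 and gif1 signals of 30948.9, 31630.2 and 29950.1. Its gif1 arrays were close together (SD 845 on a mean of 30843), with all wild-type arrays above them, and it passed as lower (-0.44, SE 0.11, limma adjusted p = 0.0245).

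The largest BEI difference belonged to a dim probe set. Os.22169.1.S2_at gave wild-type signals of 352.3, 411.3 and 369.7 and gif1 signals of 197.5, 181.1 and 209.1. Every wild-type array was well above every gif1 array, with means of 378 ± 30.3 and 196 ± 14.1 (SD, n = 3). It fell by 0.89 (SE 0.22, 95% interval -1.37 to -0.41, limma adjusted p = 0.0237).

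Os.22169.4.S1_x_at ran otherwise. It gave wild-type signals of 20209.2, 17743.6 and 17722.8 and gif1 signals of 19944.8, 19871.7 and 17770.8. The groups overlapped across almost their whole range, and the difference was 0.05 (SE 0.10, 95% interval -0.18 to 0.27, limma adjusted p = 0.793). As deposited, this interval does not reach the point estimates of the other bright BEI probe sets (-0.36 to -0.44). It overlaps the intervals of Os.22169.2.S2_x_at (-0.61 to -0.10) and Os.22169.2.S2_a_at (-0.61 to -0.14), but not that of Os.22169.1.S1_a_at (-0.68 to -0.20). These intervals take no account of the arrays the sets share, so their overlap does not test whether the sets differ. Ratios within an array are given below. With quantile normalization Os.22169.4.S1_x_at stood at 0.08 and the other bright BEI sets at 0.10, 0.02 and -0.18. With 379 probe sets brighter, it too was bright.

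With 1 array fewer the 3 BEI calls were mostly lost. Their differences had to stay below 0, since in these sets every gif1 array was below every wild-type array. They ran from -0.47 to -0.30 for Os.22169.2.S2_a_at, from -0.55 to -0.37 for Os.22169.1.S1_a_at and from -0.93 to -0.83 for Os.22169.1.S2_at. Os.22169.2.S2_a_at and Os.22169.1.S1_a_at kept their calls only when wild-type replicate 2 was the array left out (without any other, adjusted p reached 0.146 and 0.0969), and Os.22169.1.S2_at only when it was wild-type replicate 1 (up to 0.0783).

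Of the 3 BEI probe sets under the limit, Os.23896.1.S1_at had groups apart: it gave wild-type signals of 50.3, 105.2 and 61.3 and gif1 signals of 19.6, 13.9 and 22.6. With all probe sets tested, the difference was -1.27 (SE 0.58, limma adjusted p = 0.280), in a fit where 1.96% of probe sets were lower. OsAffx.5160.1.S1_s_at gave wild-type signals of 119, 9.5 and 131.9 and gif1 signals of 22.7, 13.2 and 109.3. Os.22169.2.S1_at gave wild-type signals of 42.5, 114.1 and 14.2 and gif1 signals of 22.7, 33.5 and 59.3. In both of these last sets arrays of the same genotype differed widely and the groups overlapped.

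Averaging over the 5 tested probe sets gave each gene a single value per array, fitted over 15423 genes. The mean log2 level of Wx took values of 13.71, 13.62 and 13.75 for wild type, against 13.15, 13.48 and 13.36 for gif1. The groups were apart, and the Wx mean fell by 0.37 (SE 0.11, 95% interval -0.60 to -0.13, limma adjusted p = 0.0390). For BEI the mean level took values of 14.04, 13.88 and 14.05 for wild type, against 13.58, 13.62 and 13.55 for gif1. These groups were also apart, and the BEI mean fell by 0.40 (SE 0.09, 95% interval -0.61 to -0.20, limma adjusted p = 0.0145). In that fit 6.51% of genes were lower.

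The gene's call thus depended on how its probe sets were read, and also on the scaling. With median centring, quantile normalization and control scaling the Wx mean stood at -0.029, -0.15 and 0.14. The BEI mean stood at -0.066, -0.15 and 0.10, and neither passed (limma adjusted p from 0.261 to 0.878). The brightest probe set alone gave a call for Wx and none for BEI (-0.36, limma adjusted p = 0.0554 in the fit over genes), and the median over probe sets ended the Wx call (-0.23, adjusted p = 0.132). Leaving out any array but gif1 replicate 2 ended the call of the Wx mean (adjusted p up to 0.165), with differences from -0.44 to -0.28. For BEI the call was lost without gif1 replicate 1 (-0.40, adjusted p = 0.0586) or 3 (-0.39, adjusted p = 0.0650).

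Whether probe sets of a gene moved by different amounts was tested on the ratio of each dimmer probe set to the brightest of its gene within an array, where a factor common to the whole array cancels. Of 2783 such ratios over all genes, 0.826% differed between genotypes at a limma adjusted p under 0.05, and 20.2% had groups apart. None of the 4 Wx ratios (0) and none of the 4 BEI ratios (0) passed, and 1 Wx and 2 BEI ratios had groups apart. At an unadjusted p under 0.05 the count was 2 for Wx and 1 for BEI.

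The BEI ratio with the smallest p was that of Os.22169.4.S1_x_at. Its log2 ratio to Os.22169.2.S2_x_at took values of -1.67, -1.62 and -2.01 for wild type, against -1.23, -1.43 and -1.42 for gif1. Every gif1 array was above every wild-type array, by 0.41 on average (SE 0.12, 95% interval 0.15 to 0.66, limma adjusted p = 0.129). After quantile normalization this ratio differed by -0.019. The ratio of Os.22169.1.S2_at took values of -7.44, -6.99 and -7.53 for wild type, against -7.76, -8.08 and -7.71 for gif1, lower on every gif1 array. It differed by -0.53 (SE 0.28, limma adjusted p = 0.408). Os.22169.2.S2_a_at, which shares its source sequence with the brightest, differed by -0.02 (95% interval -0.19 to 0.16), and Os.22169.1.S1_a_at by -0.09 (-0.29 to 0.12). After quantile normalization these other ratios lay further from 0. That of Os.22169.1.S2_at differed by -0.88, of Os.22169.2.S2_a_at by -0.083 and of Os.22169.1.S1_a_at by -0.28 (limma adjusted p from 0.157 to 0.723).

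For Wx the ratios to Os.11244.3.S1_x_at leaned the other way in 3 of 4 cases, since that probe set had the larger difference. They differed by 0.14 for Os.11244.1.S1_at (95% interval -0.07 to 0.35), 0.24 for Os.11244.2.S1_x_at (0.03 to 0.45) and 0.25 for Os.11244.1.S1_x_at (0.01 to 0.48). The dim Os.38414.1.S1_at differed by -0.08 (-0.72 to 0.57). Limma adjusted p-values for these 4 ran from 0.266 to 0.933. All 4 ratios share the same reference probe set. After quantile normalization they differed, in the same order, by 0.087, 0.029, -0.052 and -0.24.

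Over all pairs of tested probe sets within a gene, 7 of 10 BEI pairs and 3 of 10 Wx pairs had ratios whose groups were apart, against 20.3% of the 3456 such pairs over all genes. All 7 BEI pairs held Os.22169.4.S1_x_at or Os.22169.1.S2_at, and the pairs among the other 3 BEI sets overlapped. The widest was the pair of these 2 sets, where the log2 ratio differed by -0.94. With 3 against 3 arrays an exact permutation test of a pair cannot go below 0.1.

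Other genes give a scale for this spread. Of 2259 genes with at least 2 tested probe sets, 218 had a set called lower, and in 45 of these all sets were called lower (20.6%), while in 173 some set was not called. Of the 17 genes with exactly 5 tested probe sets, Wx and BEI included, the range from the lowest to the highest difference had a median of 0.48. It was 0.32 for Wx, and 5 of the 17 had a range that small. For BEI it was 0.94, and 4 of the 17 had a range that large.

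The direction itself depended on the scaling. With arrays centred on their medians, the median difference of all tested probe sets was 0.28 and 90.5% of calls were higher in gif1, against -0.06 and 49.9% as deposited. With arrays scaled to the hybridization controls these were 0.43 and 95.3%, and with quantile normalization 0.01 and 52.5%. Under median centring, quantile normalization and control scaling no Wx probe set passed as lower (0 each), and of the BEI probe sets 0, 1 and 0 did, the 1 being Os.22169.1.S2_at (-0.77, limma adjusted p = 0.0457).

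Median centring and control scaling give each array a factor common to its probe sets, so distances from the median of all tested sets can hardly move. Quantile normalization can move them. Os.11244.3.S1_x_at stood at -0.42 from that median as deposited and at -0.13 after quantile normalization, and Os.22169.1.S1_a_at at -0.39 and -0.19. The log2 differences of the 5 Wx sets ran from -0.22 to 0.10 after median centring, from -0.36 to -0.03 after quantile normalization and from -0.08 to 0.28 with control scaling. Those of the 5 BEI sets ran from -0.55 to 0.39, from -0.77 to 0.10 and from -0.41 to 0.56. Only Os.38414.1.S1_at and Os.22169.1.S2_at had a difference below 0 under all 4 scalings, from -0.55 to -0.08 and from -0.89 to -0.41. Os.22169.4.S1_x_at was above 0 under all 4, and passed as higher with median centring (0.39, limma adjusted p = 0.0369) and control scaling (0.56, limma adjusted p = 0.00507). Under these scalings 20.3% and 34.2% of all tested probe sets passed as higher, and it stood 0.11 and 0.13 above their median.

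Other starch genes were looked up by symbol or synonym. Many of the planned names, BEIIa and BEIIb among them, had no match, so the genes below are only a part of the pathway. Of 8 matched, 7 were tested with their brightest probe set, of which 1 rose, none fell and 6 did not pass, against 7.92% of genes higher and 5.63% lower by that measure. Their median difference was -0.16 (0.18 with median centring, 0.35 with control scaling and 0.00 after rounding with quantile normalization).

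DPE2, a disproportionating enzyme known from Arabidopsis to act on maltose in the cytosol, gave wild-type signals of 3635.3, 3803 and 3679.3 and gif1 signals of 5535.3, 4864.7 and 5097.2. Every gif1 array was higher, and it rose by 0.48 (SE 0.11, limma adjusted p = 0.0170; 0.44 to 0.98 under the other scalings). That call was lost without gif1 replicate 1 (0.42, adjusted p = 0.0828) or 3 (0.48, adjusted p = 0.0656), with differences about as large. PPDKB, pyruvate orthophosphate dikinase, gave wild-type signals of 43189.4, 42004 and 42277.9 and gif1 signals of 35064.5, 36497.8 and 35920.9. Its groups were apart, yet it did not pass (-0.25, SE 0.09, limma adjusted p = 0.0929). AGPS2, a small subunit of ADP-glucose pyrophosphorylase, which makes the ADP-glucose that Wx uses, differed by -0.20 (SE 0.13, limma adjusted p = 0.318). The soluble starch synthases ALK (-0.16) and SSI (0.00 after rounding), the plastid disproportionating enzyme DPE1 (-0.18) and the starch-binding FLO6 (0.02) had overlapping groups, with limma adjusted p-values from 0.441 to 0.987.

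Among 59 genes with a symbol of their own and a brightest probe set not ending in _x_at or _s_at, the signals most like those of the brightest Wx probe set over the 6 arrays were those of CPK23 (Pearson r = 0.941), MAGO2 (0.926), CPK7 (0.885), AT9 (0.856) and PP2C68 (0.853). For the brightest BEI probe set they were CPK7 (0.942), CPK23 (0.919), AGPS2 (0.873), OsSPO11B (0.872) and AT9 (0.864). The arrays fall into 2 genotypes, so a lower signal in gif1 and the scaling of each array enter these values, and no test was made. CPK23, a calcium-dependent protein kinase, gave wild-type signals of 65376.2, 66478.3 and 81274.4 and gif1 signals of 49598.9, 53555.9 and 45169.8. Like Os.11244.3.S1_x_at, it was highest on wild-type replicate 3, and no gif1 array reached the lowest wild-type array.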

How the data were processed

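Each probe set has 1 deposited linear intensity for every array, and the submitters' processing notes name GCOS 1.4. Background correction and probe summary were not checked, their settings being not given in the sources used here. Of 57381 probe sets, 187 controls entered no fit. No column was left unmapped (0). Fits used log2(signal + 17.7), whose offset is the lower quartile of all signals and understates differences of dim probe sets. The brighter part of the probe sets, from a mean signal of 74.1 (their median) up, was tested with limma 3.58.1 (lmFit, eBayes with an intensity trend, R 4.3.3). The model held genotype alone, and p-values were Benjamini-Hochberg adjusted over every tested feature. Ratios between probe sets and gene means were fitted in the same way, the former with the dimmer set's mean level as the trend. Scripts were tested on simulated data. The number of arrays (6) limits the precision.

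Genes came from the platform annotation (22436 probe sets with 1 gene, 95 with several, 34850 not listed) and synonyms from the RefSeq table of assembly ASM3414082v1. No genome build was used here, so no coordinates are printed. Named are all probe sets of Wx and BEI, GIF1, the tested starch genes and the 5 genes most like each member. Starch genes and markers were matched by symbol or synonym, and many planned symbols had no match. SHR2 and GLB1 were left out as other genes or uncertain matches. Members, lists and tests were chosen with earlier results of these data known. Alternatives were 3 other scalings, 2 other offsets, 2 other limits, 3 variance models or weights, a replicate block, leaving out each array, and other ways to join probe sets. Correlations of deviations between arrays of the same replicate number were -0.034, 0.022 and -0.047, so the numbers were not taken as pairs.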

Additional observations from a re-analysis of the deposited data

How the results depend on the processing

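The count of Wx probe sets called lower (1) became 0 with median centring, quantile normalization, control scaling, no limit on dim sets and no intensity trend, and 0 to 1 with single arrays left out. The BEI count (3) became 0, 1, 0, 0 and 1 under the same 5 settings, 2 with the replicate block and 0 to 3 with single arrays left out. Counts of probe sets whose ratio to the brightest passed the threshold stayed 0 in every setting run. The Wx mean (-0.37) stood at -0.029, -0.15, 0.14, -0.31 and -0.37 under those 5 settings, past the threshold in none, and at -0.37 with the replicate block (adjusted p = 0.0629). It was -0.23 as the median over probe sets, -0.55 with the dimmest alone, -0.44 with plain _at sets alone (adjusted p = 0.0419), and -0.44 to -0.28 with single arrays left out. The BEI mean (-0.40) stood at -0.066, -0.15, 0.10 and, without the trend, -0.40 (adjusted p = 0.0850), none past the threshold, and at -0.36 with the brightest alone. It passed at -0.89 with the dimmest alone (adjusted p = 0.0203), at -0.89 with sets ending in plain _at alone (adjusted p = 0.0190), at -0.51 with no limit (adjusted p = 0.0263) and at -0.44 as the median over probe sets (adjusted p = 0.0173), and stood at -0.46 to -0.37 with single arrays left out. Over all genes 3425 probe sets were called, 6430 with median centring, 10254 with control scaling, 784 without the trend and 1436 to 4294 with single arrays left out. The replicate block gave 2830. The labels do not say whether equal replicate numbers pair the arrays, and not every array resembled its own number best.

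Signs turned as follows. With median centring Os.11244.1.S1_at stood at 0.00147, Os.11244.2.S1_x_at at 0.10, Os.11244.1.S1_x_at at 0.10, PPDKB at 0.090, AGPS2 at 0.13, ALK at 0.18, DPE1 at 0.16 and SSI at 0.33. With quantile normalization Os.22169.2.S2_x_at stood at 0.10, Os.22169.2.S2_a_at at 0.020, PPDKB at 0.013, AGPS2 at 0.022 and FLO6 at -1.16e-06, and the ratios of Os.11244.1.S1_x_at and Os.22169.4.S1_x_at at -0.052 and -0.019. With control scaling the 4 bright Wx sets, by brightness, stood at 0.033, 0.17, 0.28 and 0.28, the 3 bright BEI sets other than Os.22169.4.S1_x_at at 0.15, 0.13 and 0.067, and PPDKB, AGPS2, ALK, DPE1 and SSI at 0.26, 0.31, 0.35, 0.32 and 0.50, SSI passing as higher (limma adjusted p = 0.0163). The ratio of Os.38414.1.S1_at stood at 0.032 with an offset 4 times as large and ran from -0.21 to 0.012 with single arrays left out. That of Os.22169.2.S2_a_at stood at 0.034 against the mean of the other sets and ran from -0.058 to 0.012 with single arrays left out. In the same fits FLO6 ran from -0.10 to 0.16 and SSI from -0.16 to 0.090. The cause was not tested. Without an offset, with a limit 2 times as high, with a robust variance model and with array weights both counts and both means kept their call.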
